A study of Mus musculus with 2 samples.

Results

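The annexins are a family of genes for proteins that bind acidic membrane lipids when calcium rises. Each protein has a conserved core of repeated calcium- and lipid-binding domains and an N-terminal tail that differs between members and carries their binding sites for partners such as S100 proteins. Annexins are known for membrane repair, membrane traffic, plasmin generation at the cell surface and, for annexin A1, the damping of inflammation, and annexin A5 is abundant in the vesicles from which bone-forming cells start mineral.

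RNA was compared between 2 mouse osteosarcoma cell lines on 1 Affymetrix Mouse430_2 array each. LM8 is the highly metastatic subline, and Dunn is the parental line from which it was derived and is labelled non-metastatic. Both were untreated cultures kept in the same serum-containing medium, and a culture of each stands for its line. Probe sets were taken as annexin probe sets if the array annotation gave them a single gene symbol and that symbol was 1 of 9: Anxa1, Anxa2, Anxa3, Anxa4, Anxa5, Anxa6, Anxa7, Anxa8 or Anxa11. This gave 19 of 45037 non-control probe sets and 8 of the 9 genes, against 18193 genes with such probe sets on the whole array. Anxa11 is on 1 probe set that the annotation also gives to other genes, so it has no value here.

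Signals are linear MAS5 values, scaled so that both arrays have the same trimmed mean. A signal at or under the array median, 18.96 in LM8 and 21.06 in Dunn, was treated as not above background, and a probe set was called measured if at least 1 array was above its median. Of the 19 annexin probe sets, 15 were measured, 14 of them on both arrays, and they cover 7 genes. Where a gene had several measured probe sets, the brightest gave the gene's value. With 1 array a line no test is possible and no difference below has a replicate check, so the arrays' number limits the precision. The only error at hand is the spread between probe sets of one gene, whose standard deviation in log2 ratio had a median of 0.30 over 5521 genes. In a bulk culture, fewer cells making a transcript and less of it per cell cannot be told apart.

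Most measured annexin genes had more signal in LM8 than in Dunn. Of the 7, 5 were higher in LM8 (Anxa1, Anxa2, Anxa3, Anxa5 and Anxa7) and 2 lower (Anxa4 and Anxa6). Of all measured genes, 44.7% had a ratio above 0 in log2. By a rule of at least 2-fold, Anxa3 and Anxa1 counted as higher, none counted as lower and 5 lay between. The rule took in 6.51% of all 11830 measured genes as higher and 8.84% as lower, or 10.5% and 5.40% when the arrays were scaled on 12 hybridisation controls. With that scaling Anxa7 passed as well, so that 3 annexin genes counted as higher and still 0 as lower. The median log2 ratio of LM8 over Dunn was 0.69 for the 7 annexin genes and -0.08 for all measured genes. By probe set, the rule took in 2 of 15 as higher and 0 as lower, against 5.91% and 7.79% of 25144 measured probe sets. The lean was weaker by this unit, with 9 log2 ratios above 0 and 6 below. Their median was 0.40, beside -0.07 for all measured probe sets.

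**Figure D1:**
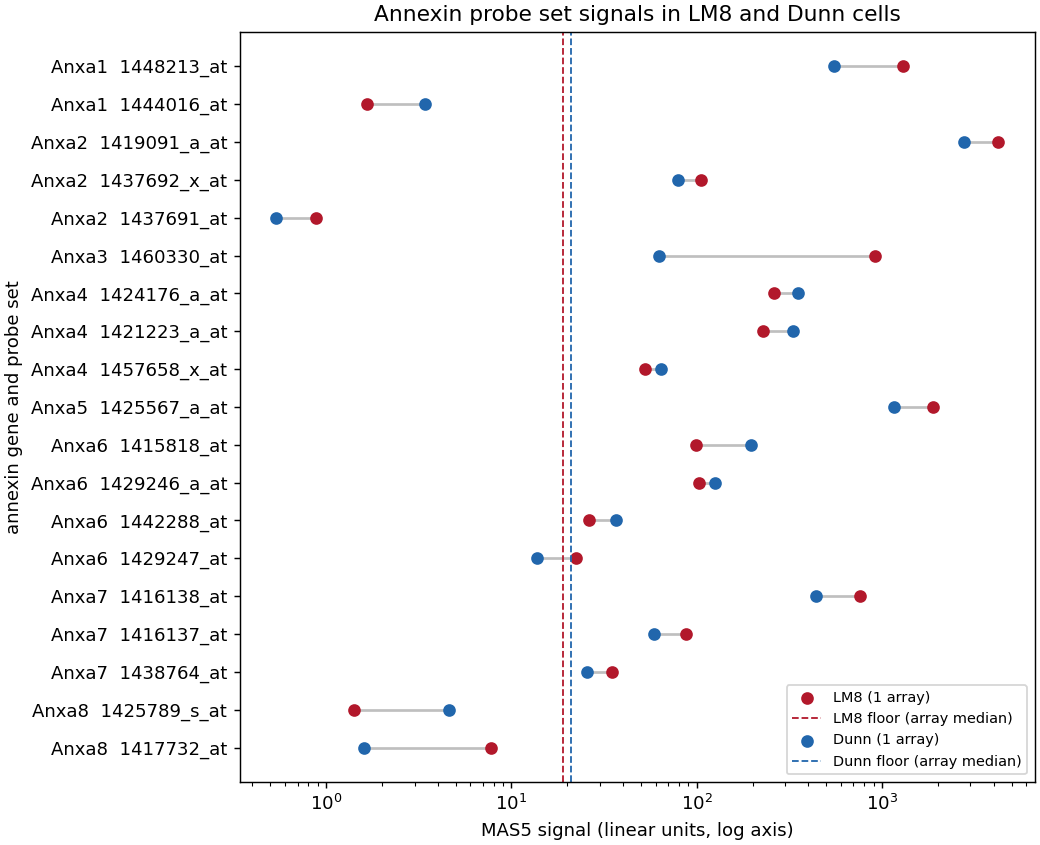
Signals of the 19 annexin probe sets in LM8 and Dunn, 1 array each, on a log axis of linear MAS5 units, with the array medians as dashed lines. The LM8 point lies right of the Dunn point for both measured Anxa2 probe sets and all 3 of Anxa7, and the longest bar between points above the dashed lines belongs to Anxa3 (913 against 62.8). Positions compare the lines within a probe set, not one probe set with another.

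Anxa3 had by far the widest difference among the annexins. Its protein is a short-tailed annexin known for high levels in neutrophils and for raised levels in several carcinomas. Its single probe set, 1460330_at, had a signal of 913 in LM8 and 62.8 in Dunn. Both signals were above the array medians, so the 14.6-fold difference (log2 ratio 3.86) is a measured ratio and not a bound. Only 11 of the 11830 measured genes had a higher ratio. No second probe set was there to repeat the value. With background set higher, at the upper quartile of each array (95.6 in Dunn), the Dunn signal counted as background and the log2 ratio became a lower bound of 3.26.

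Anxa1 was the other annexin more than 2-fold apart. Annexin A1 is a substrate of growth factor receptor kinases and a glucocorticoid-induced inhibitor of inflammation that acts through formyl peptide receptors. Its probe set 1448213_at had a signal of 1290 in LM8 and 548 in Dunn, a 2.35-fold higher level in LM8 with a log2 ratio of 1.23. Among all measured genes, 512 had a higher ratio. The gene's other probe set, 1444016_at, lay far under the medians of both arrays (1.65 in LM8 and 3.41 in Dunn) and gives no second measurement.

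Anxa2 and Anxa5, both with strong signals, differed less. Annexin A2 pairs with S100A10 at the plasma membrane, where the complex binds plasminogen and its activator. Its brightest probe set, 1419091_a_at, had a signal of 4248 in LM8 and 2773 in Dunn, or 1.53-fold (log2 ratio 0.62). A dimmer one, 1437692_x_at, had 104.8 in LM8 and 79.1 in Dunn, or 1.32-fold. The second is of a kind whose probes can match other sequences too, and a further probe set for the gene, 1437691_at, was under both medians (0.876 in LM8 and 0.535 in Dunn). The 2 measured probe sets thus leaned the same way, with a standard deviation of 0.15 between their log2 ratios.

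Annexin A5 binds phosphatidylserine, and is used in its labelled form to stain dying cells. The single Anxa5 probe set, 1425567_a_at, had a signal of 1878 in LM8 and 1163 in Dunn, which is 1.62-fold higher in LM8 (log2 ratio 0.69). This is under 2-fold, and no second probe set was there to repeat it. The difference is past the median spread between probe sets of other genes, which is no measure of variation between cultures.

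The sequences just before the annotated starts of Anxa1, Anxa2 and Anxa5, the higher genes with 1 annotated start in the promoter table, are given because these genes leaned the same way. They are the 250 bases upstream of the start, 5′ to 3′ on the gene's strand, from RefSeq (GRCm38.p6). Capitals mark matches to the motifs searched on both strands: TGANTCA, bound by the AP-1 factors, TATAAA, the motif of many focused starts, CCAAT, bound by NF-Y, and GGGCGG, the GC box. The table held 7 of the 9 genes, without Anxa3 and Anxa6.
Anxa1, chr19:20390672-20390921, minus strand: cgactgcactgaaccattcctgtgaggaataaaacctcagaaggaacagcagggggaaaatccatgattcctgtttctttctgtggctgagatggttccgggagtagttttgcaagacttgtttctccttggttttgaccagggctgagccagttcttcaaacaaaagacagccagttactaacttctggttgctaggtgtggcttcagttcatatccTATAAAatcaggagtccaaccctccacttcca
Anxa2, chr9:69453433-69453682, plus strand: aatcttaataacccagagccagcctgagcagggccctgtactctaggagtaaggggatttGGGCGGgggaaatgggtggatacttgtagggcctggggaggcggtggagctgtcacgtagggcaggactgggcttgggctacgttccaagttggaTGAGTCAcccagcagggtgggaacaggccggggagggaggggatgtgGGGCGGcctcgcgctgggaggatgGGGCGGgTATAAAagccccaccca
Anxa5, chr3:36475888-36476137, minus strand: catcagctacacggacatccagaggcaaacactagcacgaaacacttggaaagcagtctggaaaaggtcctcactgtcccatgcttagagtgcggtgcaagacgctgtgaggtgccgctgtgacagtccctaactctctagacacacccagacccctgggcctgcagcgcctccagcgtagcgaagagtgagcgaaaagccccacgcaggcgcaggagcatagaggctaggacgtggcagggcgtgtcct

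Anxa1 and Anxa2 each had a TATAAA before the start, at bases -32 to -27 in Anxa1 and -17 to -12 in Anxa2, counted back from the start. Such a match occurred in 12.4% of 32851 promoters of the same length. Anxa2 also had 3 GC boxes and 1 TGAGTCA match at bases -95 to -89, against 32.7% of promoters with a GC box and 6.75% with an AP-1 match. The stretch before Anxa5 held none of these letters, and no match overlapped another in the printed stretches. A CCAAT match was in none of the 3 and in 33.8% of all promoters. GC content was 46.0% for Anxa1, 62.4% for Anxa2 and 58.8% for Anxa5, against a median of 52.4% over all promoters. These are matches of letters and say nothing of binding.

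Anxa7 had a higher signal in LM8 on every probe set, the dimmest of them near background. Annexin A7, once called synexin, has a long N-terminal tail to which the calcium-binding protein sorcin binds, and it promotes the fusion of membranes. Probe set 1416138_at had a signal of 761 in LM8 and 438 in Dunn, a 1.74-fold difference (log2 ratio 0.80). Probe set 1416137_at had 87.2 in LM8 and 58.5 in Dunn, and 1438764_at had 35.0 in LM8 and 25.6 in Dunn. All 3 log2 ratios were above 0, between 0.45 and 0.80, with a standard deviation of 0.18. Because 1438764_at was near the array medians, the direction rests on 1416138_at and 1416137_at. The difference was larger than this spread between probe sets, which is no measure of variation between cultures.

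Anxa4 and Anxa6 leaned the other way. Annexin A4 is a membrane-binding annexin most often described in epithelia, where it limits chloride conductance. Its 3 probe sets had signals of 262 in LM8 and 353 in Dunn (1424176_a_at), 227 in LM8 and 331 in Dunn (1421223_a_at), and 52.3 in LM8 and 64.3 in Dunn (1457658_x_at). All 3 were lower in LM8, with log2 ratios from -0.54 to -0.30 and a standard deviation of 0.12, and none was near 2-fold.

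Annexin A6 is the family member with a doubled core, and is known to organise cholesterol and signalling proteins at membranes. Probe set 1415818_at had 99.4 in LM8 and 196 in Dunn, which is just short of 2-fold lower in LM8 (log2 ratio -0.98). The next, 1429246_a_at, had 103 in LM8 and 125 in Dunn, with a log2 ratio of only -0.27. Near the background, 1442288_at had 26.1 in LM8 and 36.5 in Dunn, whereas 1429247_at had 22.2 in LM8 and 13.7 in Dunn, where it was under the array median. The probe sets of Anxa6 thus disagreed more than those of the other annexins, with a standard deviation of 0.44, and their mean log2 ratio was -0.41. Of the 4 annexin genes with several measured probe sets, Anxa6 was the one whose probe sets differed in sign. This came from 1429247_at alone, which is too dim for a statement on direction.

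**Figure D2:**
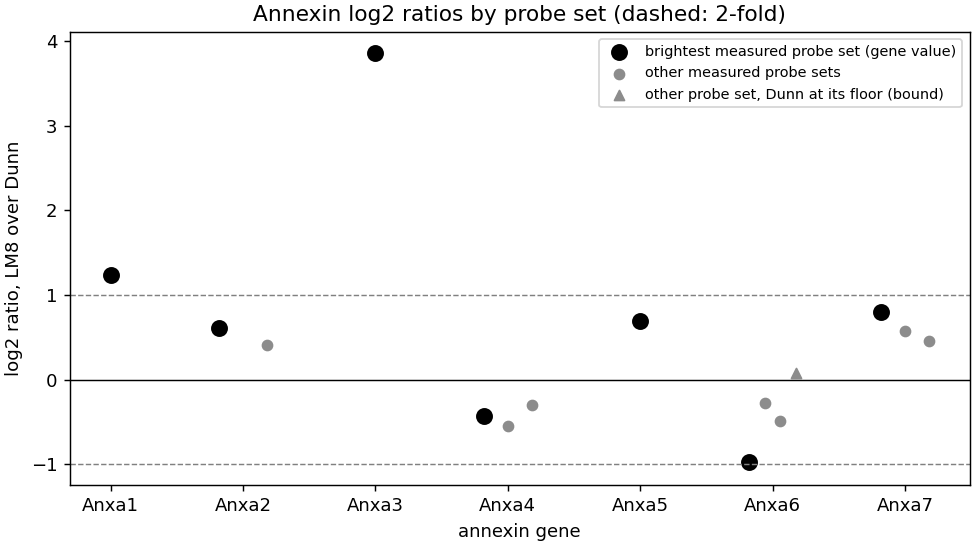
Log2 ratio of LM8 over Dunn for the 15 measured annexin probe sets, by gene, with the probe set that gave the gene's value in black and 2-fold as dashed lines. Anxa3 (3.86) and Anxa1 (1.23) lie above the upper line, the 3 points of Anxa7 lie together above 0, and those of Anxa6 spread from -0.98 to 0.08.

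Anxa8 was not above background in either line. Annexin A8 is best known from epithelia and leukaemic promyelocytes. Its probe set 1417732_at had a signal of 7.77 in LM8 and 1.60 in Dunn, and 1425789_s_at had 1.42 in LM8 and 4.59 in Dunn. All 4 values are under the array medians and the probe sets point in opposite directions, so no fold is given. Of the annexins that were not chosen as members, Anxa10 and Anxa13 were also under the median on both arrays, and Anxa9 was close to it with 27.4 in LM8 and 25.6 in Dunn.

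Set against all genes, most annexins lay in the upper part of the range. A 1.5-fold rule took in 5 of the 7 annexin genes as higher (Anxa1, Anxa2, Anxa3, Anxa5 and Anxa7) and Anxa6 as the 1 lower gene, when 15.3% of all measured genes were 1.5-fold higher and 20.3% lower. The ratio of Anxa7 was exceeded by 1135 genes, that of Anxa5 by 1440 and that of Anxa2 by 1692. Under the ratio of Anxa6 lay 1083 genes and under that of Anxa4 3264.

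**Figure D3:**
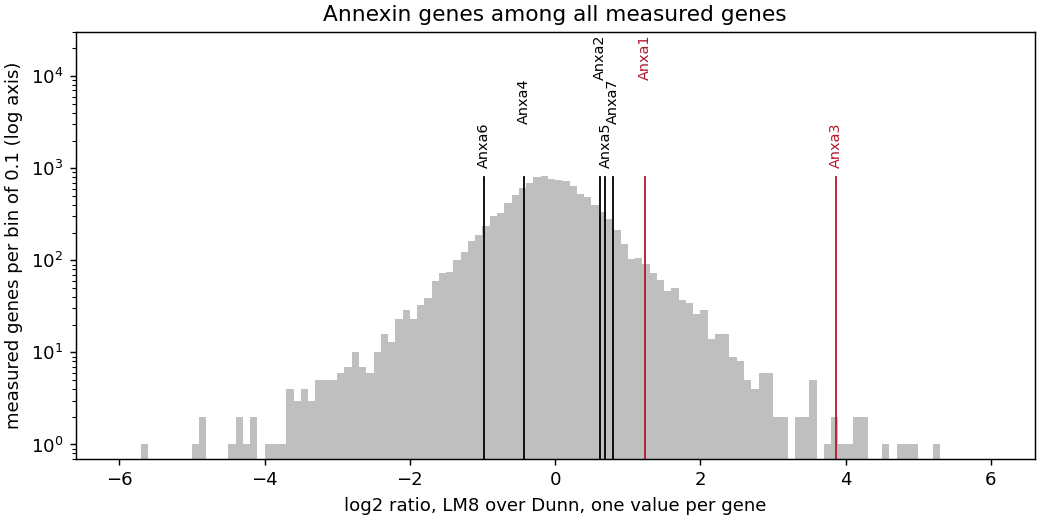
Histogram of the log2 ratio of LM8 over Dunn for 11830 measured genes (count per bin of 0.1, log axis), with a line at each of the 7 measured annexin genes and those at least 2-fold higher in red. Anxa3 at 3.86 stands in the sparse right tail, and the other 6 lie within the bulk of genes, between -0.98 and 1.23.

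Binding partners of the annexins were mostly measured and included large differences of their own. Of 9 listed partners 8 were measured, 2 were at least 2-fold higher in LM8 (S100a4 and S100b), 0 lower and 6 between, with a median log2 ratio of 0.51, beside 6.51% of all measured genes higher, 8.84% lower and a median of -0.08. S100A4, a partner of annexin A2 linked to cell motility, had a signal of 3888 in LM8 and 659 in Dunn, 5.90-fold higher in LM8. S100b, whose protein binds annexin A6, had 96.5 in LM8 and was at background in Dunn (1.10), so it was at least 4.58-fold higher. S100a10, the main partner of annexin A2, had 1809 in LM8 and 1313 in Dunn, and its log2 ratios over 3 probe sets ran from 0.16 to 0.98. S100a6, whose protein binds annexins including A11 and A2, had 4024 in LM8 and 2733 in Dunn, which is 1.47-fold. Among partners outside the S100 family, Sri, which encodes the annexin A7 partner sorcin, had 591 in LM8 and 360 in Dunn on its brightest probe set (1.64-fold), but its probe sets ranged down to a log2 ratio of -0.27. Ahnak, a giant scaffold protein that binds the annexin A2 and S100A10 complex, had 2082 in LM8 and 2833 in Dunn. Pdcd6ip had 336 in LM8 and 362 in Dunn on its brightest probe set, but its 5 probe sets ran from -1.72 to 0.95 in log2 ratio. S100a11, a partner of annexin A1, had no probe set with a single symbol.

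Of the formyl peptide receptor genes listed for annexin A1, those with a probe set gave no signal above background. Fpr2, Fpr-rs3 and Fpr-rs4, formyl peptide receptor genes, were under the median on both arrays, and Fpr1 and Fpr3 had no probe set with a single symbol. The 5 measured members of that list were phospholipase A2 genes, of which 2 were at least 2-fold lower in LM8, 0 higher and 3 between, with a median of -0.93 (all measured genes: 8.84% lower, 6.51% higher, median -0.08). The lysosomal enzyme gene Pla2g15 had 29.3 in LM8 and 102 in Dunn, 3.48-fold lower in LM8, and its 2 probe sets were alike (log2 ratios of -1.80 and -1.71). Pla2g6, a calcium-independent enzyme gene, had 57.7 in LM8 and 116 in Dunn, while its probe sets ran from -1.01 to -0.26. Pla2g4a, the cytosolic phospholipase A2 whose activity annexin A1 is known to inhibit, had 109 in LM8 and 207 in Dunn, just under 2-fold. Pla2g12a, a secreted phospholipase A2 gene, leaned the other way with 241 in LM8 and 154 in Dunn.

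Genes for plasmin generation at the cell surface, the setting of annexin A2, were largely at background. Plat and Plau, the plasminogen activators, and Plg and Serpinb2 were under the median on both arrays. Of the 2 measured of 9 listed genes, neither was 2-fold apart (all measured genes: 6.51% higher, 8.84% lower). The urokinase receptor gene Plaur had 236 in LM8 and 156 in Dunn, and the plasminogen receptor gene Plgrkt had 323 in LM8 and 545 in Dunn.

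No plasma membrane repair gene was called 2-fold apart. Of 22 listed genes 16 were measured, the 2-fold rule counted none of them, and their median was 0.05 (all measured genes: 6.51% higher, 8.84% lower, median -0.08). For Syt7 and Otof, at background in Dunn, the folds of 1.52 and 1.04 are lower bounds and the true ones may be larger. Those with the highest mean signal were Chmp4b, a subunit of the membrane-cutting ESCRT-III complex, with 890 in LM8 and 1261 in Dunn, and Vps4b, the ATPase that recycles it, with 952 in LM8 and 937 in Dunn. Capns1, the small subunit of calpain proteases that act in repair, had 548 in LM8 and 463 in Dunn.

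Genes listed around the sidedness of phosphatidylserine, the lipid that annexin A5 binds, were lower in LM8 at the median (-0.57). Not every listed gene is known to set that sidedness. Of 9 measured of 16 listed, the 2-fold rule counted 0 as higher, 2 as lower and 7 between, when it counted 6.51% of all measured genes as higher and 8.84% as lower. Plscr1, a scramblase family gene also known as interferon-induced, had 56.0 in LM8 and 194 in Dunn, 3.47-fold lower in LM8. Both of its measured probe sets were past 2-fold, and a further probe set was under both medians. Plscr4, of the same family, was at background in LM8 (6.70) with 42.3 in Dunn, so at least 2.23-fold lower, and a second probe set gave -0.71 in log2 ratio. Tmem30a, the shared subunit of the flippases that keep this lipid inside, had 516 in LM8 and 611 in Dunn on its brightest probe set, and its 5 probe sets ran from -1.09 to -0.16 in log2 ratio.

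**Figure D4:**
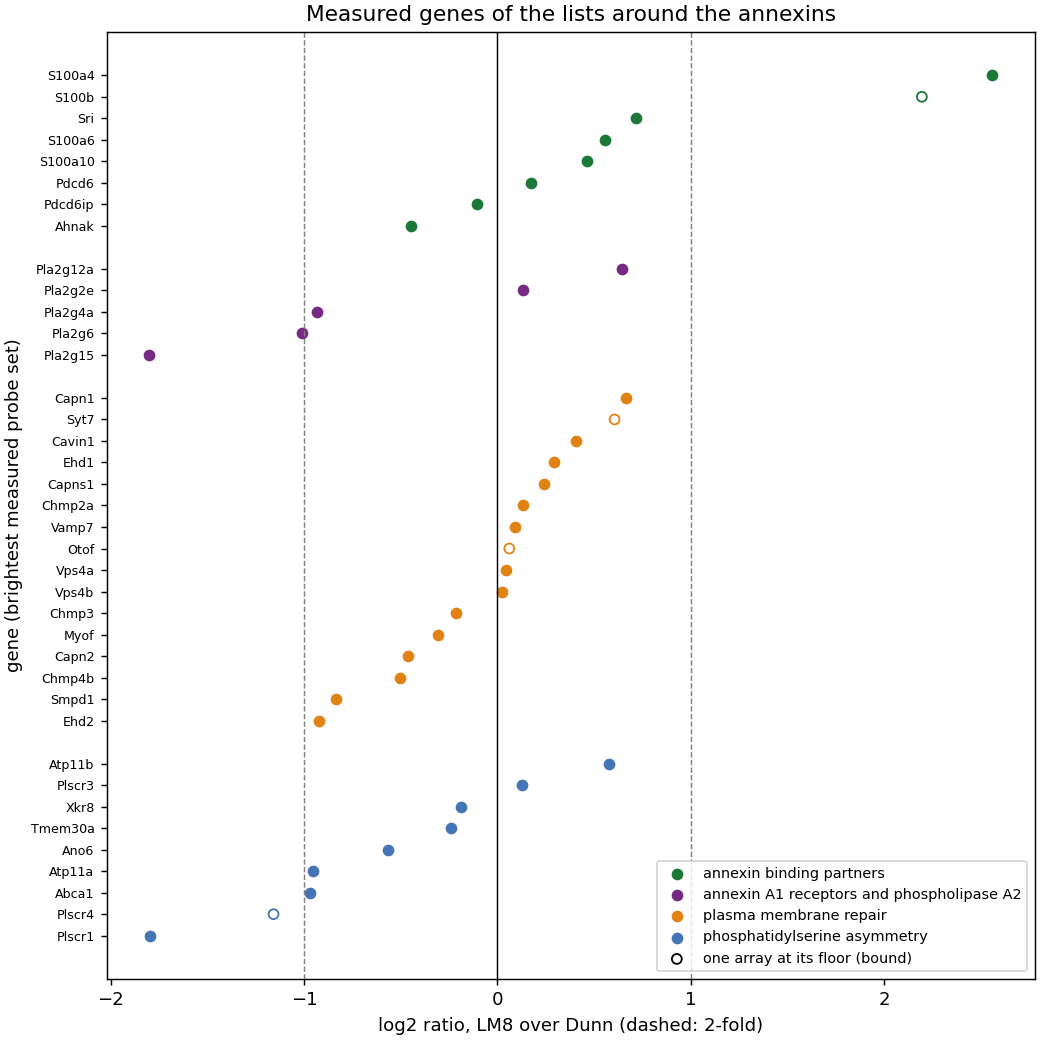
Log2 ratio of LM8 over Dunn for the measured genes of 4 lists around the annexins, each gene by its brightest probe set, with open points where one array was at background and the value is a bound. Annexin partners reach furthest right (S100a4 at 2.56), the repair genes, 2 of them as bounds, lie between the dashed 2-fold lines, and Pla2g15 (-1.80) and Plscr1 (-1.79) lie furthest left.

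The genes next to the annexins on their chromosomes did not share the size of the Anxa3 difference. The choice of 5 measured genes on each side, in the gene order of GRCm38.p6, was made after the annexin values were seen. The 10 neighbours of Anxa3 had a median log2 ratio of 0.17 and ran from -0.62 to 1.15, and 2 were at least 2-fold higher, Bmp2k next to it (340 in LM8 and 153 in Dunn) and Septin11 (1729 in LM8 and 847 in Dunn). The neighbours of Anxa1 had a median of 0.18 with none 2-fold higher and 2 lower. Around Anxa2 the median was -0.17, with a range from -1.10 to 2.05, 2 genes higher and 2 lower. Over all measured genes, the same rule took in 6.51% as higher and 8.84% as lower. Around Anxa7 the median was 0.62 and around Anxa5 0.39, against 0.80 and 0.69 for those annexins. Around Anxa6 it was -0.19, and around Anxa4 -0.28.

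**Figure D5:**
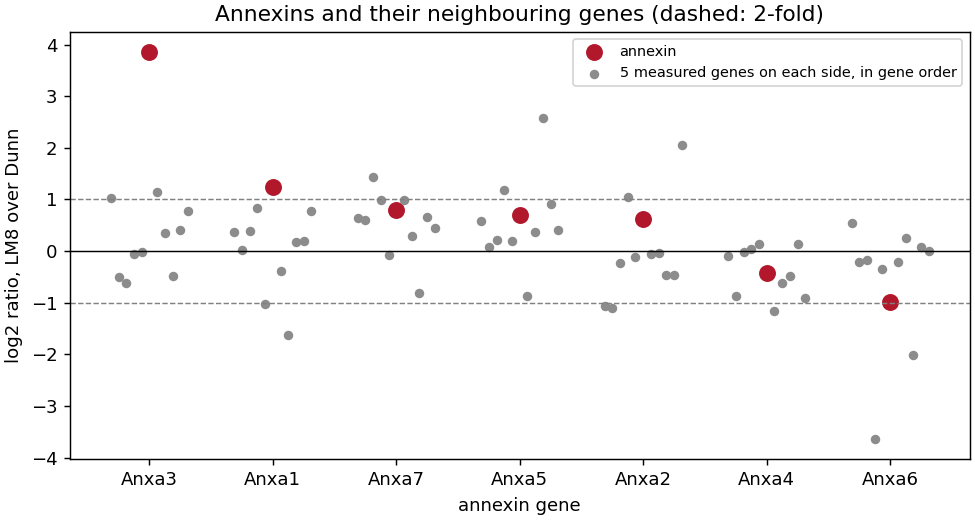
Log2 ratio of LM8 over Dunn for each measured annexin gene in red and for its 10 neighbours in gray, in gene order from left to right. Anxa3 (3.86) stands clear of its neighbours, the highest of which is at 1.15, whereas the Anxa7 point lies among its neighbours.

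Signs of RNA quality were close on the arrays. The 3′ to 5′ signal ratio was 0.789 in LM8 and 0.708 in Dunn for Gapdh, and 1.16 in LM8 and 1.26 in Dunn for beta-actin. Of 10 osteoblast markers 6 were measured, with 0 at least 2-fold higher in LM8, 2 lower and a median of -0.07. For this and the other marker lists, the shares of all measured genes past the rule were 6.51% higher and 8.84% lower. The collagen genes Col1a1 (3537 in LM8 and 2399 in Dunn) and Col1a2 (7350 in LM8 and 8785 in Dunn), Alpl (1739 in LM8 and 1266 in Dunn) and the transcription factor gene Sp7 (743 in LM8 and 687 in Dunn) lay between. These are the brightest probe sets, and for Col1a2 the 3 probe sets disagreed, with log2 ratios from -0.26 to 1.73. The lower ones were Ibsp, with 96.6 in LM8 and 239 in Dunn, and Pth1r, with 492 in LM8 and 1115 in Dunn. Phex and Dmp1 of late osteoblasts and osteocytes were under both medians. Markers of macrophages (6 of 9 measured), endothelium (2 of 7) and epithelium (3 of 7), cell types that also hold annexins, gave 0 genes past the rule as higher in LM8. Past it as lower were the macrophage markers Csf1r (2.80-fold, though its probe sets ran from -1.49 to 0.48 in log2 ratio) and Lyz2 (at least 2.36-fold) and the endothelial marker Vwf (2.26-fold). The general leucocyte marker Ptprc, the endothelial markers Pecam1 and Cdh5 and the epithelial marker Cdh1 were under the median on both arrays. Medians were -0.79 for the macrophage, -0.59 for the endothelial and -0.55 for the epithelial list. They rest on few genes, most of them with signals near the array medians or under the median in LM8. Probe sets of genes that most tissues keep silent were above the median more often in Dunn (11.8%) than in LM8 (3.94%). No direction is therefore read from these lists.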

How the data were processed

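The values were linear probe set intensities that the authors computed with MAS5, per the submitters' processing notes, from 10 µg of total RNA an array, per the labels' protocols. The MAS5 version and settings are not given in the sources used here. The experiment sheets deposited with the arrays gave the same chip type, scanner and scan day.

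The 64 control probe sets were left out, and the other 45037 were brought to a common 2% trimmed mean, which multiplied both arrays by 1.00. Signals at or under an array's median were set to that median, so a fold with 1 array there is a lower bound. Of 127 probe sets of receptor and keratin-associated genes that most tissues keep silent, 3.94% were above it in LM8 and 11.8% in Dunn. Symbols came from the platform annotation and were updated by gene identifier (99.4% matched). A gene took its brightest measured probe set.

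With 1 array a line no test was run, and genes were counted by a 2-fold rule. The members, lists and rules were chosen with earlier results of these data known. All members are named, and of each list the genes 2-fold apart, with the brightest where those were fewer than 3; the cell type markers and other genes shown were picked after their values were seen. A comparison of the proteins was planned and not run, because protein sequences were not used here. The alternatives were 4 scalings, 2 other floors, no floor, a pseudocount, 2 gene summaries and 2 call rules. The steps were tested on simulated data. Python 3.11.15, numpy 2.4.6, pandas 2.3.3, statsmodels 0.14.6 and matplotlib 3.10.9 were used.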

Additional observations from a re-analysis of the deposited data

How the results depend on the processing

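Across 4 scalings, 2 other floors, no floor, a pseudocount and 2 gene summaries, the sign of each of the 7 measured annexin genes stayed the same. The log2 ratio of Anxa1 ran from 1.20 to 1.48, Anxa2 from 0.51 to 0.86, Anxa3 from 3.26 to 4.11, Anxa4 from -0.45 to -0.19, Anxa5 from 0.68 to 0.94, Anxa6 from -0.98 to -0.38 and Anxa7 from 0.58 to 1.04. The annexin median ran from 0.58 to 0.94. Scaling on 12 hybridisation controls shifted the median of all genes to 0.16, and the share of all genes at least 2-fold higher and lower to 10.5% and 5.40%, while the annexin median stayed 0.78 above that of all genes and Anxa7 joined Anxa1 and Anxa3 past 2-fold (log2 ratio 1.04). The count of annexin probe sets or genes at least 2-fold higher became 1 with a 3-fold rule (Anxa3) and 5 with a 1.5-fold rule, where 1 was lower, since these rules change the threshold itself. Of all measured genes, the 3-fold rule took in 2.49% as higher and 2.84% as lower, and the 1.5-fold rule 15.3% and 20.3%. With neither floor nor filter, 2 dim probe sets counted as lower, 1444016_at of Anxa1 and 1425789_s_at of Anxa8, and 1417732_at of Anxa8 counted as higher. By gene, that setting counted 3 of 8 annexins as higher and 0 as lower. Its shares of all 18193 genes were 14.0% higher and 18.4% lower. Anxa6 was -0.41 as a mean and -0.38 as a median over its probe sets. Anxa3 was 3.48 with a pseudocount, which pulls in dim signals by construction. Signals under the array medians, as for Anxa8, or near them, as for Anxa9 and 2 Anxa6 probe sets, allow no statement on direction. No paired analysis was possible because each line has 1 array.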
